A study of Homo sapiens with 4 samples.

Results

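The 10 genes described here encode proteins of cytokinesis and of the chromosomal passenger complex, and their RNA was measured in the human prostate carcinoma line PC-3M-luc, a metastatic derivative of PC-3 that carries luciferase. They were taken from a list of names, ANLN, ECT2, RACGAP1, PRC1, CIT, CEP55, AURKB, INCENP, BIRC5 and CDCA8, and make up 10 of the 22841 gene symbols in the count tables. That list was chosen with earlier results of these data known. The knockdown group received RNAi against LSD1, a histone demethylase encoded by KDM1A, and the control group received control RNAi. Both groups were transfected with the same lipid reagent, grown in serum-containing medium and harvested 72 h after transfection. Each group held 2 libraries that the labels call biological replicates, and the sources used here do not give the duplex sequences. Both groups are a single cell line, and nothing further states how the replicates were kept apart. The p-values therefore weigh each difference against variation between these libraries only. The tests estimate that variation partly from other genes, so it does not follow a gene's own replicates alone.

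Cytokinesis is the last step of cell division, in which an actomyosin ring pinches the cell at its middle and the bridge that is left is cut. The ring is placed by the central spindle, a bundle of overlapping microtubules between the separating chromosomes, where the RACGAP1 protein recruits the RhoA activator ECT2. The chromosomal passenger complex, made of the kinase AURKB and the proteins INCENP, BIRC5 and CDCA8, moves from centromeres to that central spindle and controls both chromosome attachment and the timing of the cut. Genes of this kind are transcribed mainly in G2 and mitosis, and many carry a promoter element called the cell cycle genes homology region (CHR), bound by complexes that contain LIN54 together with either E2F4 and a pocket protein or MYBL2 and FOXM1.

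Promoter sequence is shown for the 8 genes that matched the RefSeq promoter table, which covers 250 bases before and 50 after an annotated start on GRCh38.p14. A window was searched on both strands for TTTGAA or TTCGAA (CHR), for CCAAT (the box bound by NF-Y) and for TTGGCGC or GGCGGGA (E2F-like). CHR letters were present for 7 of these 8 genes, against 19.5% of the 27305 genes in the table, a CCAAT box for 7 of 8, against 39.7%, and an E2F-like match for 3 of 8, against 20.5%. The stretches below run 5′ to 3′ on the gene's strand, and capitals mark matches on either strand. ANLN (chr7:36389762-36389861, plus strand) and PRC1 (chr15:90994536-90994635, minus strand) are shown because each has a CHR match within the 30 bases before the start. INCENP (chr11:62123891-62124010, plus strand) and CDCA8 (chr1:37692396-37692515, plus strand) are passenger complex genes with such a match.
ANLN: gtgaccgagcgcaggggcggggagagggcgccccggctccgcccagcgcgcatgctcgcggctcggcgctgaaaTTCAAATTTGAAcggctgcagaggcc
PRC1: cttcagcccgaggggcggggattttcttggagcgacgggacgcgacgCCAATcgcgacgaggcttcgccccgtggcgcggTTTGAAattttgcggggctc
INCENP: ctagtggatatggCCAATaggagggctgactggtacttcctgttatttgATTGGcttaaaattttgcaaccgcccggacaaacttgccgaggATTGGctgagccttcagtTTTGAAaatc
CDCA8: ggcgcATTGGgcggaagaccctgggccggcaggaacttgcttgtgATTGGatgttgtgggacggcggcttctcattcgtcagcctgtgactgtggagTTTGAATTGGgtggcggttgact

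In ANLN a pair of CHR matches on opposite strands, at -26 to -21 and at -20 to -15 from the start, adjoin without a gap. The match lies at -20 to -15 in PRC1, at -10 to -5 in INCENP and at -23 to -18 in CDCA8, where its last base is shared with a reverse CCAAT box at -18 to -14. CEP55 (chr10:93496422-93496521, plus strand) and CIT (chr12:119877441-119877540, minus strand) had the lowest fold changes of the 8 after ANLN. CEP55 holds a CHR match at -116 to -111 and a CCAAT box at -102 to -98. A further CHR match in CEP55, outside the stretch shown, spans the start at -3 to 3. In CIT a CHR match lies at -208 to -203 and a CCAAT box at -213 to -209, and a further CHR match, outside the stretch shown, lies at 11 to 16. ANLN had 0 CCAAT matches in its window. Whether the spacing of motifs goes with fold change was not tested. ECT2 (chr3:172750606-172750705, plus strand) is shown because it did not pass the test and yet holds CHR letters at -115 to -110 and CCAAT boxes at -97 to -93 and -58 to -54. AURKB (chr17:8210286-8210385, minus strand) is the gene of the 8 with no CHR letters in either of its windows.
CEP55: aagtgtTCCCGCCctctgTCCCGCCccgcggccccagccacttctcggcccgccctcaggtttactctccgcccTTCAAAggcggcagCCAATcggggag
CIT: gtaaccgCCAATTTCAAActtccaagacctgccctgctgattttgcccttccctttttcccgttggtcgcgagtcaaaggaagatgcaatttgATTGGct
ECT2: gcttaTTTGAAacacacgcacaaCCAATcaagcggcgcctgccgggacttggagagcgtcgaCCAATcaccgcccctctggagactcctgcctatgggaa
AURKB: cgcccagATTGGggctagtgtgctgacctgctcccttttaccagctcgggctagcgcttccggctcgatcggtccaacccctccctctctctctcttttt

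These matches describe the letters in a window and not binding, which was not measured.

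**Figure D1:**
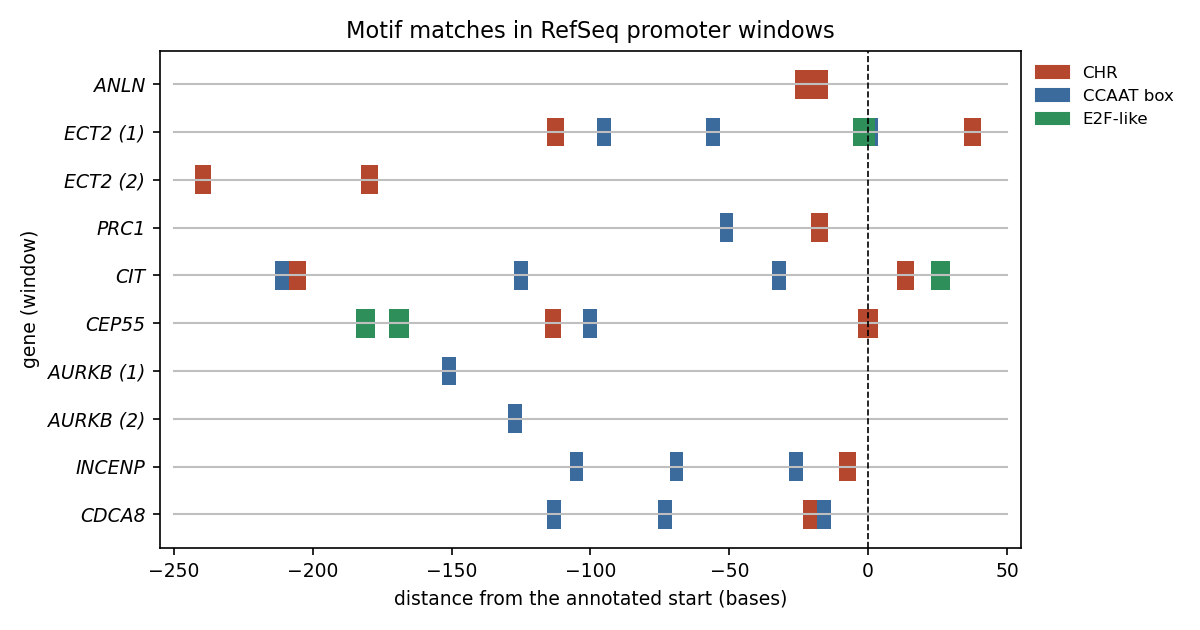
Positions of motif matches in RefSeq promoter windows, with distance from the annotated start in bases on the horizontal axis and 1 line per window (numbers in brackets where a gene has 2 windows). Boxes are CHR (red), CCAAT (blue) and E2F-like (green) matches, and CHR boxes lie just before the start in ANLN, PRC1, INCENP and CDCA8. In CEP55 a CHR box spans the start, and in CIT and ECT2 a CHR box lies after it.

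Counts assigned to genes were 12040681 and 12831374 in knockdown libraries and 12474183 and 12410719 in control libraries. Levels are given as CPM, counts scaled to library size by TMM, and a limit of 3 counts lay between 0.234 and 0.249 CPM. KDM1A had 17.8 and 18.1 CPM in knockdown libraries, against 235.1 and 238.1 CPM in control libraries, so that 7.60% of its RNA was left. As checks of the cell type, the epithelial keratin genes KRT8, KRT18 and KRT19 had at least 2408 counts in every library. These were not all stable, as KRT8 was called higher (log2 fold change 0.47, edgeR adjusted p = 1.83e-05) while KRT18 and KRT19 did not pass. The luminal prostate genes KLK2 and KLK3 had 0 counts in every library. Of the markers of other cell types, the leukocyte genes PTPRC and CD3E, the fibroblast gene LUM and the endothelial gene CDH5 had 0 counts in every library, and 4 erythroid genes had at most 3. Some other genes of those lists were detected, and within each list they did not move together. CD68, a macrophage gene, had 44.8 and 46.8 CPM in knockdown libraries and 86.7 and 86.0 CPM in control libraries, whereas LYZ, which encodes lysozyme, was called higher at low counts (17 and 13 in knockdown libraries, against 4 and 2 in control libraries). Of the endothelial genes, KDR rose, with 58.0 and 52.3 CPM in knockdown libraries and 20.4 and 28.6 CPM in control libraries, and PECAM1 fell, with 26 and 20 counts in knockdown libraries and 37 and 38 in control libraries. Of the fibroblast collagen genes, COL1A2 rose by 0.61 on the log2 scale and COL1A1, at -0.11, did not pass (edgeR adjusted p = 0.472). The part of these markers in the results was not tested.

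Of the 10 genes, 9 fell after LSD1 knockdown, 0 rose and 1, ECT2, did not pass (edgeR quasi-likelihood test, adjusted p under 0.05 over 13247 tested genes). All 10 passed the filter on low counts. At the same threshold 17.9% of all tested genes were called lower and 18.2% higher. The median log2 fold change was -0.48 for the 10 genes and 0.0024 for all tested genes. At an unadjusted p under 0.05, 9 were lower and 0 higher, and DESeq2 and limma-voom also called 0 higher. Both knockdown libraries lay below both control libraries for 10 of 10 genes, as for 33.4% of all tested genes. Summed over the 10 genes, the level was 551.9 and 535.1 CPM in knockdown libraries, against 766.6 and 820.7 CPM in control libraries. In bulk RNA, fewer dividing cells and less RNA per dividing cell cannot be told apart.

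**Figure D2:**
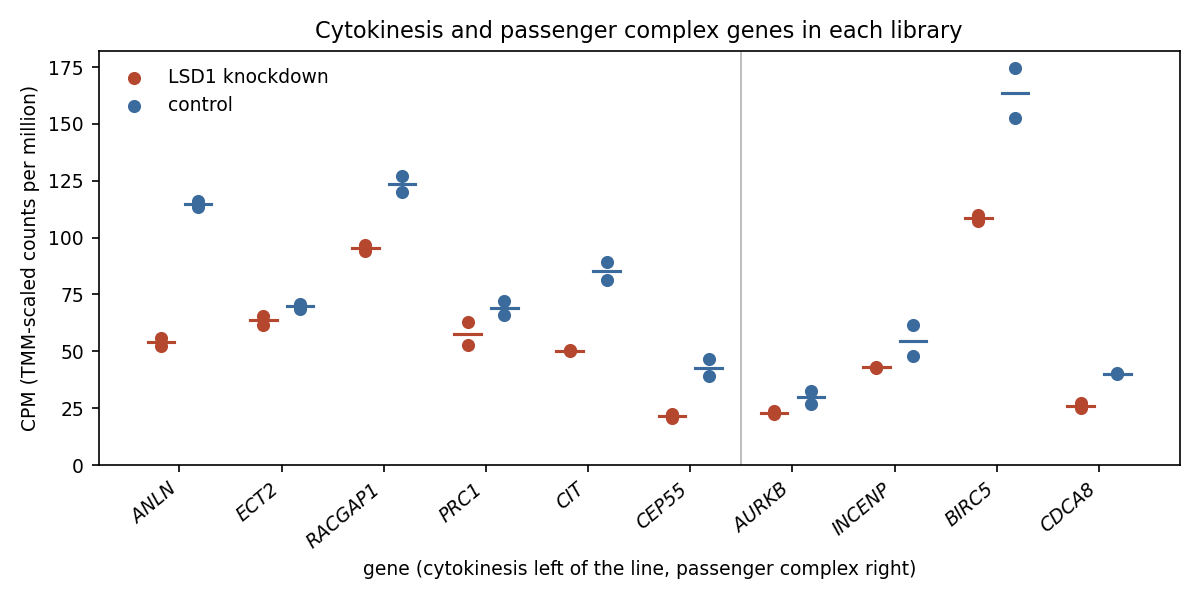
Level of each gene in CPM (vertical axis, linear) in the 2 knockdown libraries (red, left of each pair) and the 2 control libraries (blue, right of each pair), with bars at the group means. In all 10 genes both red points lie below both blue points, with the narrowest gaps in ECT2 and PRC1.

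The actomyosin ring genes ANLN and CIT were among those with the lowest fold changes. ANLN encodes anillin, a scaffold that ties RhoA, actin, myosin and septins together in the cleavage furrow. Its level was 55.8 and 52.3 CPM in knockdown libraries, against 116.1 and 113.4 CPM in control libraries (raw counts of 682 and 676, against 1442 and 1378). The groups were separated by 1.02 on the log2 scale between their nearest libraries, far more than the 0.10 between the knockdown replicates or the 0.03 between the control replicates. ANLN fell by 1.09 on the log2 scale (standard error 0.0877, edgeR adjusted p = 1.57e-11), and 1.29% of tested genes had a fold change as low or lower. CIT encodes citron kinase, which keeps the midbody ring organised late in cytokinesis. CIT had 50.5 and 50.2 CPM in knockdown libraries and 81.6 and 89.2 CPM in control libraries. The knockdown libraries were nearly equal while the control libraries differed by more, and the fold change of -0.76 (log2, standard error 0.0903) passed the test (edgeR adjusted p = 4.85e-08).

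CEP55, which is recruited to the midbody late in division and brings in the ESCRT machinery that cuts the bridge, fell by nearly as much as ANLN. Its level was 20.8 and 22.4 CPM in knockdown libraries, against 46.6 and 39.1 CPM in control libraries. Control replicate 1 was the higher of the control libraries here, unlike in most of the 10 genes, and the groups stayed apart by 0.80 on the log2 scale. CEP55 fell by 0.99 on the log2 scale (standard error 0.111, edgeR adjusted p = 1.63e-08).

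The central spindle genes changed less. RACGAP1, a GTPase-activating protein and subunit of the centralspindlin complex, had 96.6 and 94.3 CPM in knockdown libraries, against 120.1 and 127.2 CPM in control libraries. RACGAP1 fell by 0.37 on the log2 scale (standard error 0.0837, edgeR adjusted p = 0.000636). ECT2, the exchange factor that activates RhoA at the equator, had 65.5 and 61.8 CPM in knockdown libraries and 68.8 and 70.9 CPM in control libraries. The ECT2 groups did not overlap but lay close, and the log2 fold change of -0.13 did not pass (95% interval -0.32 to 0.05, edgeR adjusted p = 0.250), which does not show that its level was equal. PRC1 encodes the protein that cross-links antiparallel microtubules in the midzone. PRC1 had 62.9 and 52.8 CPM in knockdown libraries and 66.0 and 71.9 CPM in control libraries. Knockdown replicate 2 was the lowest library and knockdown replicate 1 lay close to control replicate 1. The log2 fold change of -0.26 (standard error 0.0954) passed narrowly (edgeR adjusted p = 0.0348). This call was lost without knockdown replicate 2, at a log2 fold change of -0.13 (edgeR adjusted p = 0.401), without control replicate 2, at -0.19 (edgeR adjusted p = 0.230), without a scaling factor, at -0.22 (edgeR adjusted p = 0.0695), and without a filter on low counts, at -0.26 (edgeR adjusted p = 0.0619). With DESeq2 the log2 fold change was also -0.26, with a larger error (adjusted p = 0.125).

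All 4 passenger complex genes were called lower, by smaller amounts than ANLN or CEP55. BIRC5, which encodes survivin and docks the complex on phosphorylated histone H3, had 107.4 and 109.8 CPM in knockdown libraries, against 152.4 and 174.5 CPM in control libraries. CDCA8, which encodes borealin, a partner of survivin in centromere binding, had 27.3 and 25.0 CPM in knockdown libraries and 39.9 and 40.5 CPM in control libraries. The groups were well separated in both genes, with log2 fold changes of -0.59 (standard error 0.0853, edgeR adjusted p = 1.62e-06) for BIRC5 and -0.62 (standard error 0.104, edgeR adjusted p = 1.53e-05) for CDCA8.

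AURKB, the catalytic kinase, had 22.4 and 23.6 CPM in knockdown libraries, against 27.0 and 32.6 CPM in control libraries. INCENP, the scaffold that binds and activates that kinase, had 42.7 and 43.1 CPM in knockdown libraries and 48.1 and 61.4 CPM in control libraries. In both genes the knockdown libraries were close together and control replicate 2 stood above control replicate 1. The log2 fold changes were -0.37 (standard error 0.115, edgeR adjusted p = 0.0107) for AURKB and -0.35 (standard error 0.103, edgeR adjusted p = 0.00743) for INCENP. Both calls were lost without control replicate 2. A fit without 1 library leaves its group with a single library, which is assumed to vary like the other group. Without control replicate 2 the log2 fold change was -0.23 for AURKB (edgeR adjusted p = 0.215) and -0.17 for INCENP (edgeR adjusted p = 0.345), and 6 of the 10 genes were called lower. AURKB also missed the threshold without knockdown replicate 1 (log2 fold change -0.34, edgeR adjusted p = 0.0532) and with DESeq2 (-0.38, adjusted p = 0.0737), where the size of the fall was close to that with all libraries and edgeR and its error was larger.

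**Figure D3:**
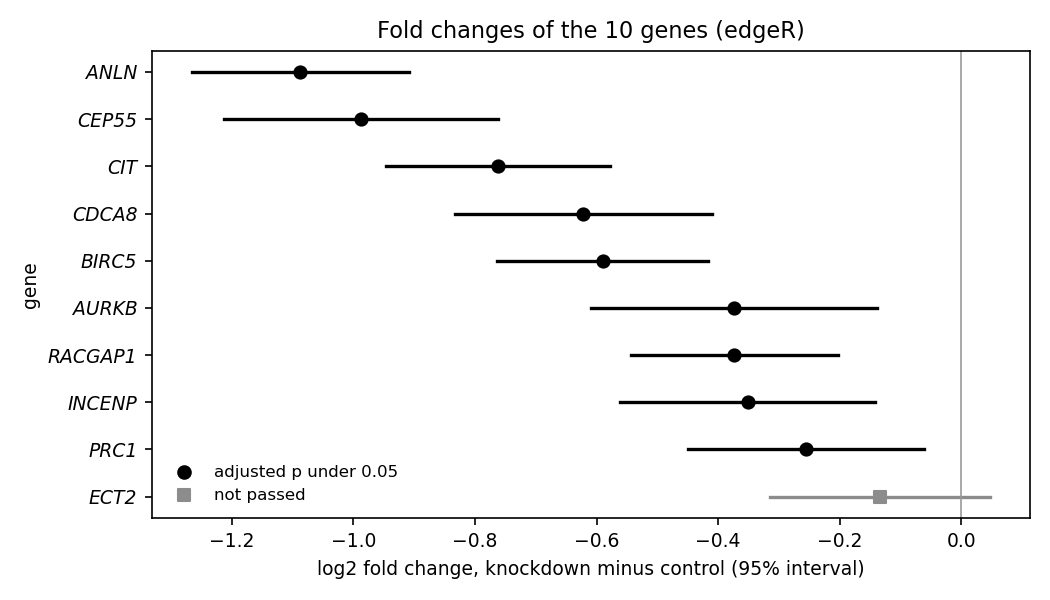
Log2 fold change (horizontal axis, knockdown minus control) of each gene with its 95% interval from edgeR, from ANLN at -1.09 at the top to ECT2 at -0.13 at the bottom. Black circles passed an adjusted p under 0.05, and the grey square, ECT2, did not, its interval reaching past 0.

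The fold changes spread from -1.09 in ANLN to -0.13 in ECT2, and the 95% interval of ANLN, -1.27 to -0.91, did not touch that of any gene other than CEP55 (-1.21 to -0.76) and CIT (-0.95 to -0.58). The medians were -0.57 for the 6 cytokinesis genes and -0.48 for the 4 passenger complex genes, a difference that was not tested. Ratios of counts within a library restate these differences without scaling between libraries, for pairs chosen after the fold changes were seen, and add no independent support. ANLN had 0.853 and 0.846 counts per ECT2 count in knockdown libraries, against 1.69 and 1.6 in control libraries. CEP55 had 0.215 and 0.238 counts per RACGAP1 count in knockdown libraries and 0.388 and 0.307 in control libraries. Among passenger complex genes, AURKB had 0.524 and 0.547 counts per INCENP count in knockdown libraries and 0.561 and 0.531 in control libraries, which overlapped. BIRC5 had 2.52 and 2.55 counts per INCENP count in knockdown libraries, below the 3.17 and 2.84 in control libraries. With 2 libraries per group these ratios were not tested.

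**Figure D4:**
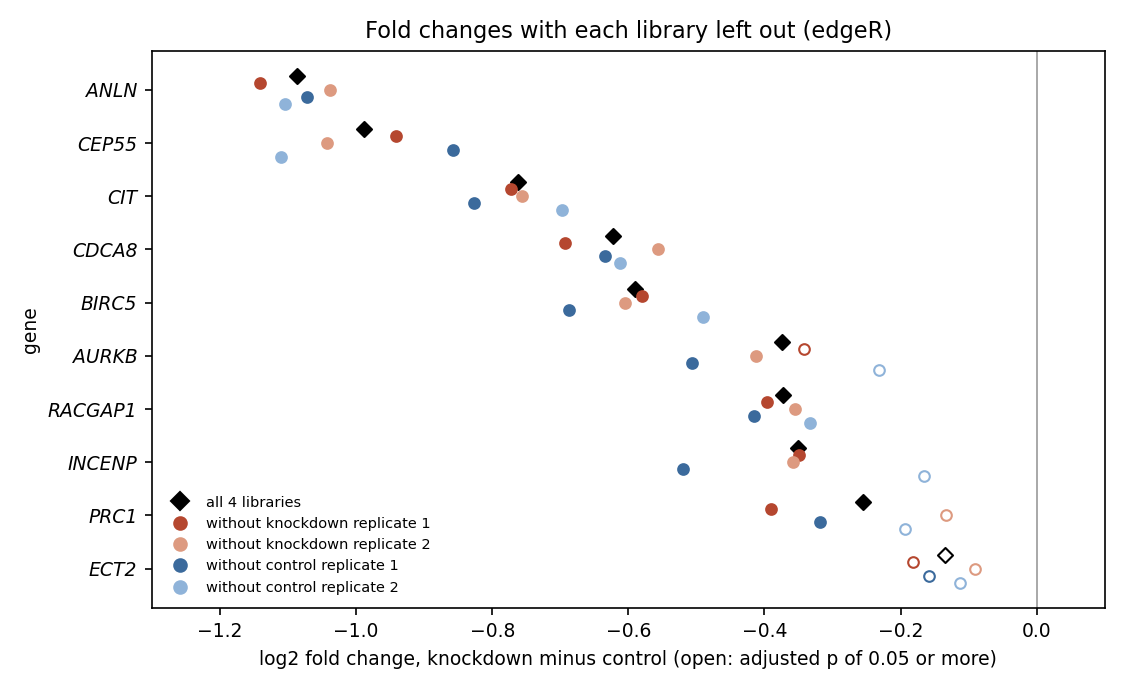
Log2 fold change of each gene (horizontal axis, knockdown minus control) with all 4 libraries (black diamonds) and with each library left out in turn (circles). Open symbols have an adjusted p of 0.05 or more. ANLN, CEP55, CIT, CDCA8, BIRC5 and RACGAP1 stay filled throughout, whereas AURKB, INCENP and PRC1 each have at least 1 open symbol and ECT2 is open in all 5.

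Per kilobase of transcript, which allows levels of different genes to be compared, BIRC5 was the most abundant of the 10 in both groups, at 40.1 ± 0.612 CPM per kb in knockdown libraries and 60.3 ± 5.76 in control libraries (SD, n = 2 each). RACGAP1 followed at 31.0 ± 0.530 CPM per kb in knockdown libraries and 40.1 ± 1.62 in control libraries. CIT was the lowest, at 5.78 ± 0.0284 CPM per kb in knockdown libraries and 9.80 ± 0.616 in control libraries. ANLN was level with AURKB in control libraries (24.0 ± 0.394 for ANLN and 24.3 ± 3.24 for AURKB). In knockdown libraries ANLN was at 11.3 ± 0.529 CPM per kb, below AURKB at 18.7 ± 0.706. Its knockdown libraries, at 11.7 and 10.9 CPM per kb, lay just above those of INCENP, at 10.8 and 10.9, and overlapped those of CDCA8, at 11.1 and 10.1. PRC1 at 19.1 ± 2.35 and AURKB did not differ beyond their spread in knockdown libraries. Lengths are those of GENCODE 29 transcripts paired with the counted RefSeq accession, the shortest where several are paired.

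For 6 of the 10 genes the tables hold more than 1 RefSeq transcript row, and most reads were counted in each row of a gene. BIRC5 rows NM_001012271 and NM_001168 were identical in all 4 libraries, and NM_001012270 had 38 and 50 fewer counts in knockdown libraries and 76 and 49 fewer in control libraries. RACGAP1 row NM_001126104 exceeded NM_013277 by 29 and 34 counts in knockdown libraries and by 49 and 97 in control libraries. The rows therefore do not resolve isoforms here. PRC1 shares 406 exonic nucleotides with the antisense gene PRC1-AS1 in GENCODE 29 and 3181 with the overlapping same-strand gene AC068831.7. Counting is not stated to use strand, so reads of these overlapping genes cannot be told apart from those of PRC1. The overlap of ANLN with the opposite-strand gene MATCAP2 is 78 nucleotides, and MATCAP2 had 22 and 27 counts in knockdown libraries and 45 and 38 in control libraries.

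Markers of the mitotic phase and of S phase fell along with the 10 genes. Among all tested genes, 17.9% were called lower and 18.2% higher. Of 20 mitotic markers 17 fell, 0 rose and 3 did not pass, with a median log2 fold change of -0.55. Their summed level was 1300 and 1198 CPM in knockdown libraries, against 1832 and 1874 CPM in control libraries. UBE2C, which helps mark mitotic cyclins for destruction, had 41.8 and 38.8 CPM in knockdown libraries and 79.3 and 82.0 CPM in control libraries. HMMR, a spindle protein, had a log2 fold change of -1.04, TPX2 of -0.75 and the spindle kinase AURKA of -0.76. Mitotic markers that did not pass included CDK1 and KIF11, named after their values were seen. Their log2 fold changes were 0.03 and -0.07 (edgeR adjusted p = 0.856 and 0.605). Of 20 S phase markers 18 fell, 0 rose and 2 did not pass, with a median of -0.58 and a summed level of 1322 and 1255 CPM in knockdown libraries, against 1838 and 1790 CPM in control libraries. The ribonucleotide reductase gene RRM1, the flap endonuclease gene FEN1, the helicase gene MCM5 and the ubiquitin ligase adaptor gene DTL had log2 fold changes between -0.83 and -0.77. At an unadjusted p under 0.05 and by DESeq2, 0 genes of either list were higher. How far the share of cycling cells accounts for the levels of the 10 genes was not tested.

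Other genes of the central spindle and of cytokinesis fell in 11 of 19 tested cases and rose in 2, with a median of -0.32. Those shares were 57.9% and 10.5%, against 17.9% and 18.2% of all tested genes. KIF14, the kinesin that binds PRC1 and citron kinase, had 24.6 and 20.0 CPM in knockdown libraries and 51.4 and 47.2 CPM in control libraries, a log2 fold change of -1.15. TACC3, NUSAP1 and SPAG5, all microtubule-binding spindle proteins, fell by 0.78, 0.73 and 0.68 on the log2 scale. KIF23, the kinesin partner of RACGAP1, was named after its values were seen. KIF23 had 32.1 and 30.9 CPM in knockdown libraries and 39.1 and 33.0 CPM in control libraries, and its log2 fold change of -0.20 did not pass (edgeR adjusted p = 0.151).

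Contractile ring genes held 10 that fell and 1 that rose of 22 tested, with a median of -0.17. As shares, 45.5% fell and 4.55% rose, against 17.9% and 18.2% of all tested genes. MYL12A and MYL6, light chains of myosin, fell by 0.57 and 0.59 on the log2 scale, ROCK2, a kinase downstream of RhoA, by 0.57, and the septin gene SEPTIN10 by 0.53. The gene that rose was SEPTIN11, another septin, at 0.53, and RHOA itself, at -0.15, did not pass (edgeR adjusted p = 0.162), both named after their values were seen. Abscission genes, mainly ESCRT-III subunits and their ATPases, held 3 that fell and 1 that rose of 23 tested, shares of 13.0% and 4.35% against the 17.9% and 18.2% of all tested genes, with a median of -0.05. CHMP5 fell by 0.46 and the ATPase gene VPS4B by 0.38 on the log2 scale. CHMP4B fell by 0.27, a call that was lost without knockdown replicate 2, at a log2 fold change of -0.21 (edgeR adjusted p = 0.124), and without control replicate 1, at -0.26 (edgeR adjusted p = 0.0569). SPAST, the microtubule-severing spastin, rose by 0.61.

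A list of passenger complex recruiters and opponents held kinases, phosphatases and ligases, and also other genes, condensin subunits among them. Of its 25 tested genes 10 fell and 4 rose, with a median of -0.15. These shares were 40% and 16%, against 17.9% and 18.2% of all tested genes. HASPIN, the kinase that phosphorylates histone H3 to make the survivin docking site, had 9.99 and 8.35 CPM in knockdown libraries and 17.5 and 17.8 CPM in control libraries, a log2 fold change of -0.95. CDCA2, which brings the PP1 phosphatase to chromatin, fell by 0.68 and the condensin gene NCAPG by 0.44 on the log2 scale. KLHL9, part of the CUL3 ligase that removes AURKB from chromosomes, rose by 0.54. The counts depended on single libraries. They were 4 lower and 3 higher without knockdown replicate 2, 10 and 1 without knockdown replicate 1, 6 and 3 without control replicate 1, and 6 and 2 without control replicate 2. DESeq2 called 7 lower and 2 higher.

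Regulators of cell cycle transcription fell in 7 of 18 cases and rose in 2, with a median of -0.15. The shares were 38.9% and 11.1%, against 17.9% and 18.2% of all tested genes. MYBL2 and FOXM1, activators of G2 and mitotic genes, had log2 fold changes of -0.37 and -0.48, and MYBL1, a relative of MYBL2, of -0.99. LIN54, which binds CHR elements, fell by 0.43, LIN9, another MuvB subunit, by 0.32, the E2F partner TFDP1 by 0.24 and the histone-binding RBBP4 by 0.34 on the log2 scale. E2F5, a repressive E2F, rose by 1.58 and TFDP2 by 0.28. Counts were 4 lower and 1 higher without control replicate 2, where LIN54, LIN9, TFDP1 and TFDP2 missed the threshold, and 1 was higher without control replicate 1, without knockdown replicate 1 or with DESeq2. Levels of E2F4 and RBL2, which bind the same promoters in resting cells and were named after their values were seen, had log2 fold changes of 0.03 and 0.0027 and did not pass (edgeR adjusted p = 0.816 and 0.985).

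**Figure D5:**
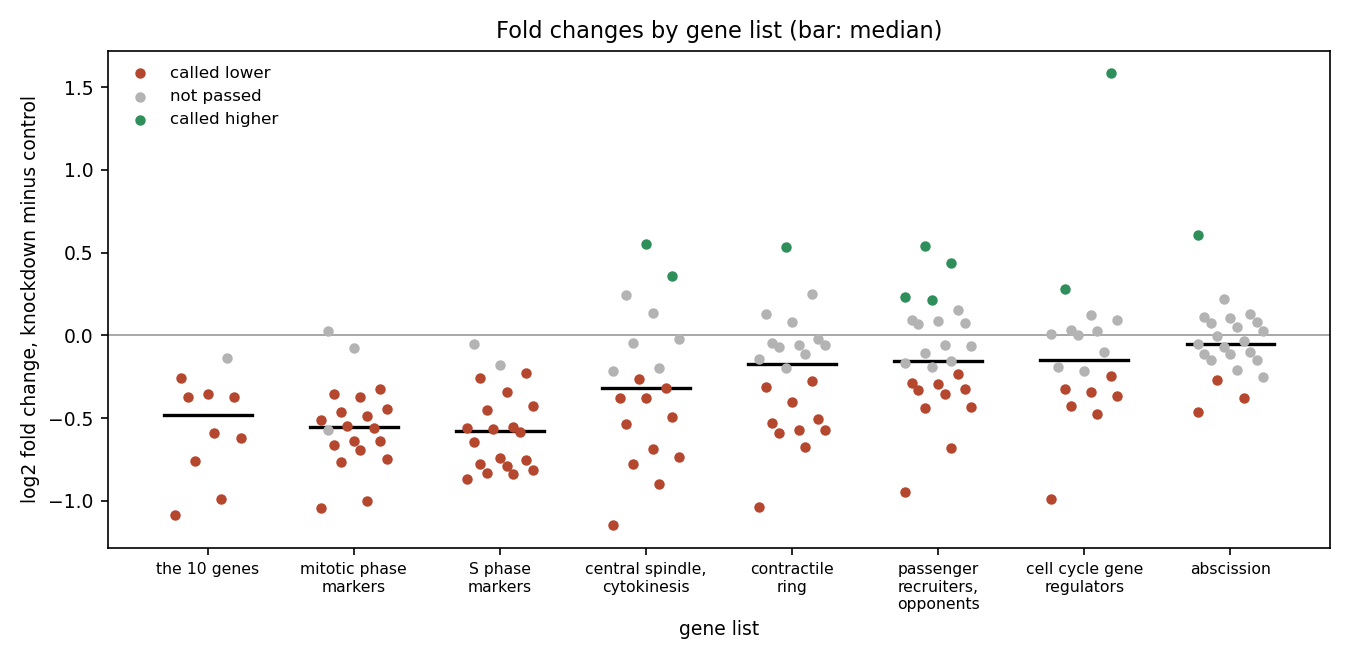
Log2 fold change (vertical axis, knockdown minus control) of each tested gene in 8 lists, coloured by whether it was called lower (red), called higher (green) or did not pass (grey), with black bars at the medians. The 10 genes (median -0.48), the mitotic (-0.55) and the S phase markers (-0.58) lie almost wholly below 0, whereas abscission genes centre near 0 (-0.05).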

How the data were processed

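RNA-seq was done on 4 libraries of PC-3M-luc cells, 2 with LSD1 knockdown and 2 controls. The authors deposited 1 headerless table per library with a count for each RefSeq transcript, taken as raw reads because the numbers are whole and their totals differ. TopHat2, HOMER, edgeR, DESeq 1.8.3 and hg19 are named, with no role, per the submitters' processing notes. Of 38767 rows per table, 37205 were matched to symbols in a RefSeq gene table and 472 in GENCODE metadata. Another 1090 rows, with 1.38% to 1.40% of all counts, had no symbol and were not used. The row with the highest mean count stood for each of the 22841 symbols.

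After TMM scaling and edgeR's filterByExpr (minimum count 10, minimum total 15), groups were compared by quasi-likelihood F-tests (edgeR 4.0.16, R 4.3.3, group as the only term, Benjamini-Hochberg adjustment over 13247 genes, threshold 0.05), a script checked on simulated counts. The common dispersion gave a biological coefficient of variation of 5.96%. Limits of 3 counts cover counting error only. Alternatives were other tests (limma-voom from limma 3.58.1 and DESeq2 1.42.0), other scalings (DESeq2 size factors or none), other filters (none or 1 CPM), rows summed per symbol, a block for replicate number, and each library left out. The members and lists were chosen with earlier results of these data known. Named genes were the 10 members, KDM1A, up to 4 called genes per list with the smallest adjusted p and every called regulator, and others are marked. No list was tested as a set. Sequence searches and plots used Python 3.11.15. Gene and promoter annotation is GRCh38, and no hg19 coordinates are given. Some marker genes are not reported here.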

Additional observations from a re-analysis of the deposited data

How the results depend on the processing

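Across 12 alternatives (other scalings, filters, tests, sums over rows, a replicate block and each library left out), ANLN, CEP55, CIT, CDCA8, BIRC5 and RACGAP1 stayed past the threshold in 12 of 12, INCENP in 11, AURKB in 9 and PRC1 in 7, while ECT2 passed in 0, and no log2 fold change of the 10 genes changed sign. The number of the 10 genes called lower was 9 with all libraries, 7 with DESeq2, 8 without a scaling factor or without a filter, and 6 to 9 with 1 library left out. It was 9 with the replicate number as a block (replicate block), which changed no call of these genes; the correlation of same-numbered libraries' deviations, over 12918 genes, was 0.111, and the labels do not say that a number marks a shared batch. Among all genes DESeq2 called 1564 higher and 1618 lower, against 2413 and 2375 with edgeR. Without control replicate 2, AURKB, INCENP and PRC1 lost their calls, and the cause was not tested. Counting error weighs most in the genes with the fewest counts, CEP55 (at least 254 per library), AURKB (273) and CDCA8 (323).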
